A study of Mus musculus with 32 samples.

Results

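DNA transposons are the repeats that move by a cut-and-paste route, in which a transposase excises the element and inserts it elsewhere. The members described here are the rows of the deposited count tables whose row name gives the class as DNA. There are 204 such rows among 1153 repeat subfamilies and 56488 rows in all, the rest of which are genes. Another 21 rows carry the class "DNA?" and are outside the rule. The 204 rows hold 197 names, because 7 names occur in 2 families and are given here with their family. By family, 73 members belong to hAT-Charlie, 44 to TcMar-Tigger, 31 to hAT-Tip100, 8 each to hAT, hAT-Blackjack and TcMar-Tc2, 5 each to MuDR, MULE-MuDR and TcMar, 3 to TcMar-Mariner, 2 to PiggyBac and 1 to TcMar-Pogo, and 11 have no family beyond the class name.

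As background, mouse DNA transposons are mostly old and have lost the ability to move. Many are short internally deleted elements, such as the MER subfamilies, which depended on the transposase of a longer relative. The subfamilies URR1A and URR1B are hAT-Charlie elements known from rodents. Copies of such repeats lie in introns, untranslated regions and between genes, so that a read assigned to a subfamily can come from a longer transcript that contains a copy. Whether the reads counted here lay inside other transcripts was not tested, since the tables give 1 count per subfamily with no position.

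RNA was sequenced from mouse oocytes, early embryos and stem cells, in 32 libraries that form 16 groups of 2 replicates (rep). Growing oocytes at postnatal day 14 (P14) carried a histone H3.3 transgene, either H3.3K4M, in which methionine replaces lysine 4, or H3.3WT, the unaltered form. Both groups are transgenic, the promoter of the transgenes is not given in the sources used here, and neither group was treated. The AB2.2 embryonic stem cells (ESC), which are 1 wild-type line, received cycloheximide (CHX, which blocks translation), MG132 (which blocks the proteasome) or the vehicle DMSO. Metaphase II (MII) oocytes came from untreated wild-type females aged 12 months (12m) or 8 weeks (8w). Wild-type 2-cell (2C) embryos from in vitro fertilisation received aphidicolin (APH, which blocks replicative DNA polymerases), CHX, MG132 or DMSO in the embryo medium KSOM, and came from females of 6 to 8 weeks. A further 2C group came from 12-month females and had no treatment, so that maternal age and the lack of DMSO cannot be told apart in it. The 4-cell (4C) embryos, also from females of 6 to 8 weeks, received APH, CHX, MG132 or DMSO. The low-input method Smart-seq2 was used for oocytes and embryos and a poly(A)-selecting TruSeq kit for ESC, so that kit and cell type cannot be told apart. No label ties a replicate to its own culture, animals or embryos, so the distance between the 2 libraries of a group may be technical. The p-values rest on that distance as pooled over all groups of a fit. Where a fit held more than 2 groups, groups outside a comparison therefore entered its p-values.

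Total counts per library ran between 14313718 (2C APH rep 1) and 34713159 (4C APH rep 2), and 155 to 191 of the 204 members had at least 1 read in a library. The summed level of 7 oocyte markers was 28430 to 31333 CPM (reads scaled to a common library total) in P14 oocytes, 2137 to 4459 CPM in MII oocytes, 2158 to 5052 CPM in 2C embryos, 40.9 to 179.7 CPM in 4C embryos and 7.37 to 10.4 CPM in ESC. The summed level of 5 markers of the 2-cell embryo was 25028 and 15302 CPM in 2C DMSO embryos, against 24.8 to 51.4 CPM in MII oocytes. The 2-cell sum was 27.8 to 146 CPM in 2C embryos with CHX or MG132, and in 4C CHX rep 2 (16542 CPM) and 4C MG132 rep 2 (21582 CPM) it exceeded 2C DMSO rep 2. Neither of these sums therefore marks 1 stage alone. The oocyte sum was as high in 2C embryos as in MII oocytes, and the 2-cell sum was also high at 4 cells. The 2-cell sum was mostly that of 1 repeat, MERVL-int, with 24361 and 14355 CPM in 2C DMSO embryos and 21492.5 CPM in 4C MG132 rep 2. Zscan4c, Zscan4d and Usp17la were lower in every 4C library than in both 2C DMSO libraries. Zfp352, the other gene of the list, had 253 CPM in 4C CHX rep 2 and 277 and 247 CPM in 2C DMSO embryos. The 7 ESC markers summed to 4119 to 5044 CPM in ESC and also to 5583 to 6284 CPM in P14 oocytes. In P14 oocytes Dppa5a alone had 5522 to 6211 CPM, and Nanog, Sox2, Zfp42 and Klf4 were each under 1 CPM. The sum was 1412 to 6728 CPM in 4C embryos, again mostly Dppa5a. In bulk samples, fewer cells of a type and less RNA per cell cannot be told apart. No spike-in is stated, so every level is a share of its own library.

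DNA transposons were a small and variable share of the RNA, and their largest mean share, 0.272% ± 0.00435 (SD, n = 2), came in vehicle-treated 2C embryos. They held 0.0450% and 0.0510% of all counts in P14 H3.3K4M oocytes and 0.0647% and 0.0551% in P14 H3.3WT oocytes. The share was 0.128% and 0.126% in MII 12m oocytes and 0.127% and 0.118% in MII 8w oocytes. At 2 cells it was 0.178% and 0.214% with APH, 0.106% and 0.0899% with CHX, 0.130% and 0.135% with MG132, 0.166% and 0.195% in 12m embryos, and 0.275% and 0.269% with DMSO. Both 2C DMSO libraries thus stood above all the other 2C libraries. At 4 cells it was 0.107% and 0.125% with APH, 0.272% and 0.194% with CHX, 0.190% and 0.169% with MG132, and 0.128% and 0.140% with DMSO. With CHX or MG132 both libraries stood above both DMSO libraries at 4 cells, and below both at 2 cells. Of repeat counts alone, the 4C libraries overlapped, at 1.08% and 0.712% with CHX and 0.863% and 0.680% with MG132, against 0.741% and 0.695% with DMSO. As a share of all counts, the highest 4C library, CHX rep 1 (0.272%), lay between the 2C DMSO libraries (0.275% and 0.269%). ESC held 0.0894% and 0.107% with CHX, 0.107% and 0.0910% with MG132, and 0.0740% and 0.0907% with DMSO, where the CHX libraries overlapped those with DMSO and the MG132 libraries lay just above them. An exact permutation test of 2 libraries against 2 cannot give a two-sided p below 0.333, so these shares are given as values without a test.

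**Figure D1:**
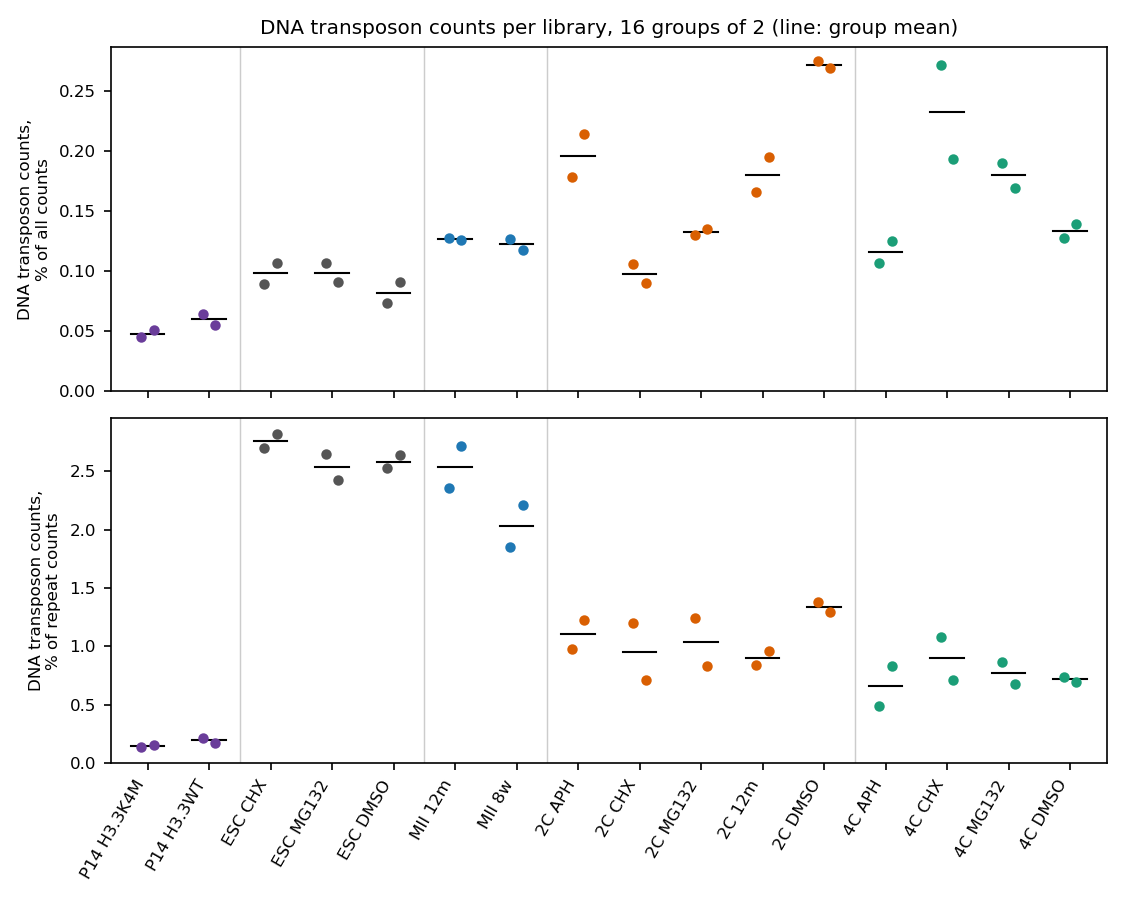
Share of counts assigned to DNA transposon subfamilies in each of the 32 libraries (points) and the mean of each group of 2 (line), as a percentage of all counts (upper plot) and of the counts of repeats (lower plot). The 2C DMSO group has the highest mean in the upper plot, with libraries at 0.275% and 0.269% and 4C CHX rep 1 between them, while in the lower plot the stem cells and MII oocytes are highest and P14 oocytes lowest.

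The share of all counts and the share of repeat counts did not order the groups alike. Of the repeat counts, DNA transposons took 0.136% and 0.154% in P14 H3.3K4M oocytes and 0.215% and 0.173% in P14 H3.3WT oocytes, where LTR elements alone took 28.8% to 32.1% of all counts. They took 2.36% and 2.72% of repeat counts in MII 12m oocytes, 1.85% and 2.21% in MII 8w oocytes, and 2.43% to 2.82% in ESC. In 2C DMSO embryos the value was 1.38% and 1.29%, and in 4C DMSO embryos 0.741% and 0.695%. On the log2 scale the mean share in 2C DMSO embryos over that in MII 8w oocytes was 1.15 as a share of all counts but -0.60 as a share of repeat counts. The direction of the class as a whole between oocyte and 2-cell embryo therefore depends on what it is measured against. The summed level of old repeats of other classes, the LINE families L2 and CR1 and the SINE family MIR, was 2802 and 2883 CPM in 2C DMSO embryos, against 879 and 997 CPM in MII 8w oocytes.

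A few subfamilies held much of the class. The 8 members with the highest mean CPM over the 32 libraries are URR1B, URR1A, RCHARR1, MER5A, MER5B and MER20 of hAT-Charlie and MER2 and Tigger7 of TcMar-Tigger, and together they held 37.4% to 53.8% of the DNA transposon counts of a library. By family, hAT-Charlie held a mean of 54.3% of these counts in P14 H3.3K4M oocytes, the lowest of the 16 groups, and 71.5% in ESC DMSO, the highest. TcMar-Tigger held between 20.8% in ESC CHX and 32% in P14 H3.3K4M oocytes. The hAT-Tip100 family held 12.1% and 18% in 2C CHX embryos, and its mean in the other 15 groups was between 2.52% and 8.83%. Its summed level was 127.9 and 162.2 CPM in 2C CHX embryos and 123.5 and 143.4 CPM in 2C DMSO embryos. A single member, MER91A, had a mean of 81.5 CPM in 2C CHX embryos, so the high share is largely that of this subfamily. PiggyBac elements, which are sparse in mouse, held 6.80% in 4C CHX rep 1 and 3.64% in 4C MG132 rep 2, and at most 0.702% in any other library.

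Levels of single subfamilies are not comparable with each other, because the tables give neither the length nor the number of the copies. The course of each across the groups is therefore described. Each level is a share of its own library, and ESC libraries came from another kit, which limits comparison between stages. URR1A had 263.6 and 243.0 CPM in 2C DMSO embryos, its highest untreated or vehicle level. It had 42.4 and 45.1 CPM in MII 12m oocytes and 32.8 and 29.5 CPM in MII 8w oocytes. In P14 oocytes it had 26.1 and 33.9 CPM with H3.3K4M and 43.3 and 36.0 CPM with H3.3WT. The 2C DMSO libraries thus lay far above every oocyte library. The 4C DMSO embryos (123.9 and 134.4 CPM) and ESC DMSO (98.2 and 116.1 CPM) lay between them. Its relative URR1B varied less, with 279.3 and 256.9 CPM in 2C DMSO embryos, 107.7 and 122.4 CPM in MII 12m oocytes and 98.0 and 98.2 CPM in MII 8w oocytes. The ratio of URR1A to URR1B was therefore low in MII oocytes, at 0.394 and 0.368 (12m) and 0.335 and 0.301 (8w), and near 1 in 2C DMSO embryos, at 0.944 and 0.946. In 4C embryos it was 1.03 to 1.23 over all 8 libraries and in ESC 0.942 to 0.995 over all 6. In 2C embryos with CHX it was 0.576 and 0.406, with MG132 0.586 in both libraries, and with APH 0.676 and 0.745. These ratios fell between those of MII oocytes and of 2C DMSO embryos.

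**Figure D2:**
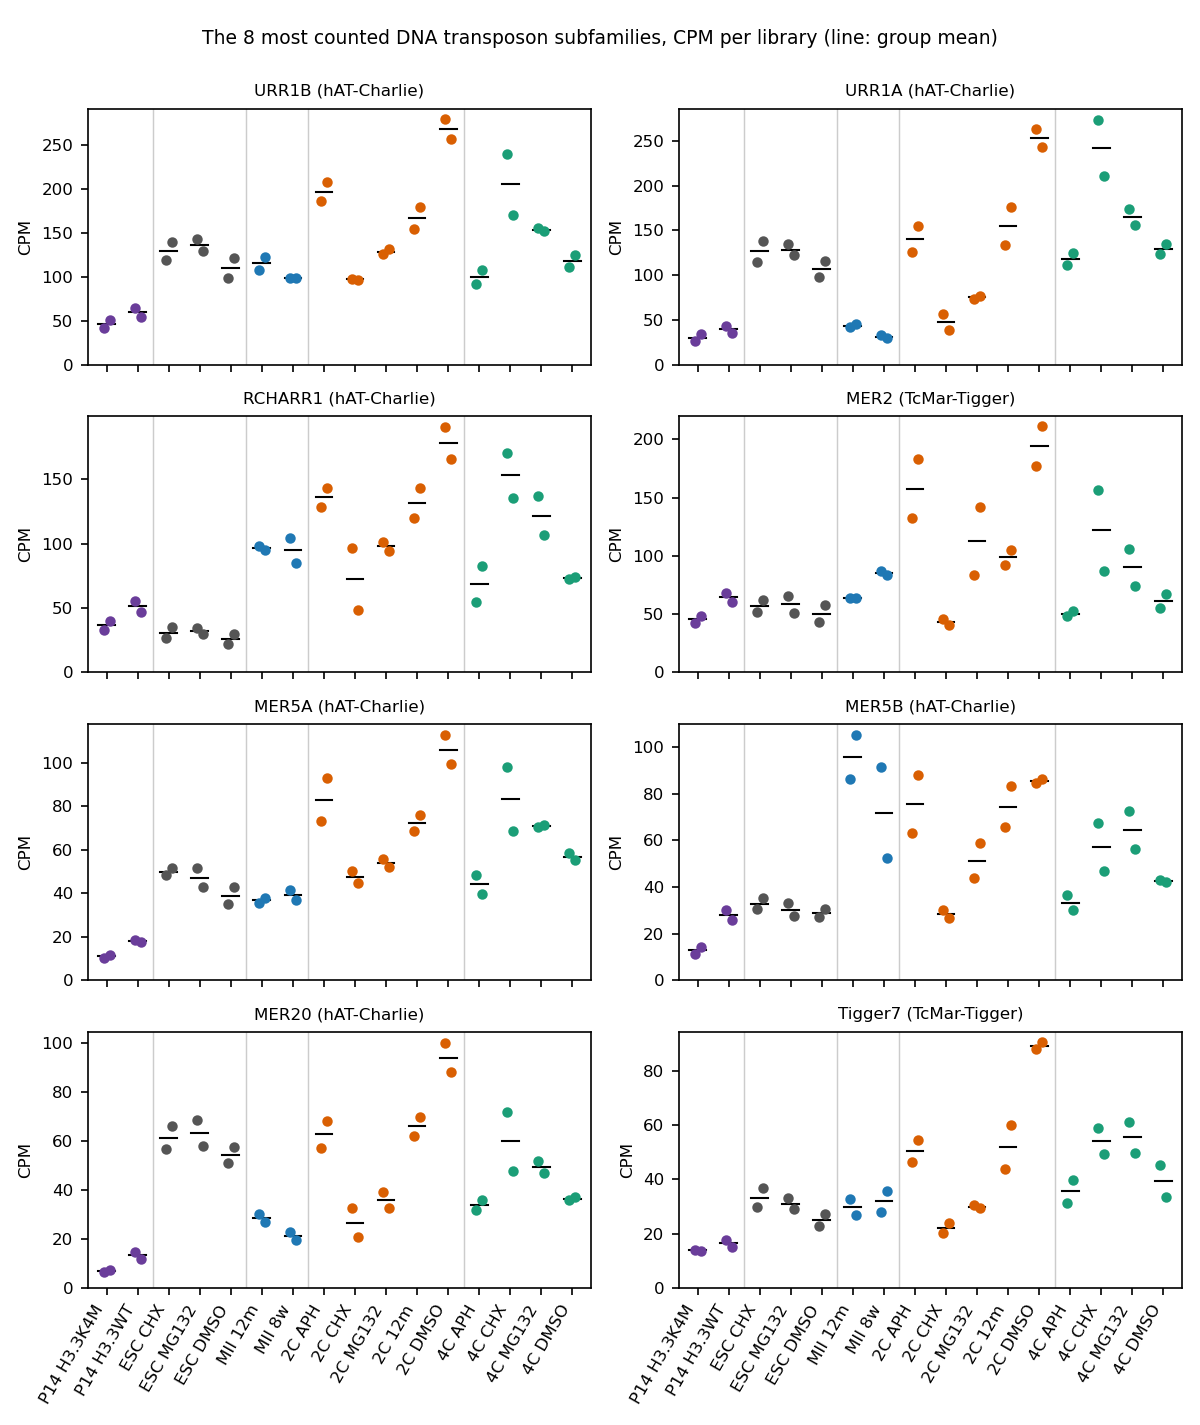
CPM in each library (points) of the 8 DNA transposon subfamilies with the highest mean level, with the mean of each group of 2 (line); each plot has its own axis from 0. All 8 have lower values in 2C CHX than in 2C DMSO libraries, and URR1A has 29.5 to 45.1 CPM in MII oocytes beside 263.6 and 243.0 CPM in 2C DMSO embryos.

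There were 123 members with a mean of at least 1 CPM over all 32 libraries. Of these, 56 had their highest group mean in 2C DMSO embryos, 18 in 4C CHX embryos, 9 in MII 12m oocytes and 1 in P14 oocytes. No other group held the peak of more than 6 members. The map of the 40 most counted members shows the 2C DMSO column as mostly above and the P14 columns as mostly below each member's own mean. MER44D and MER91A were among the exceptions in P14 oocytes, where both lay above their own mean.

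**Figure D3:**
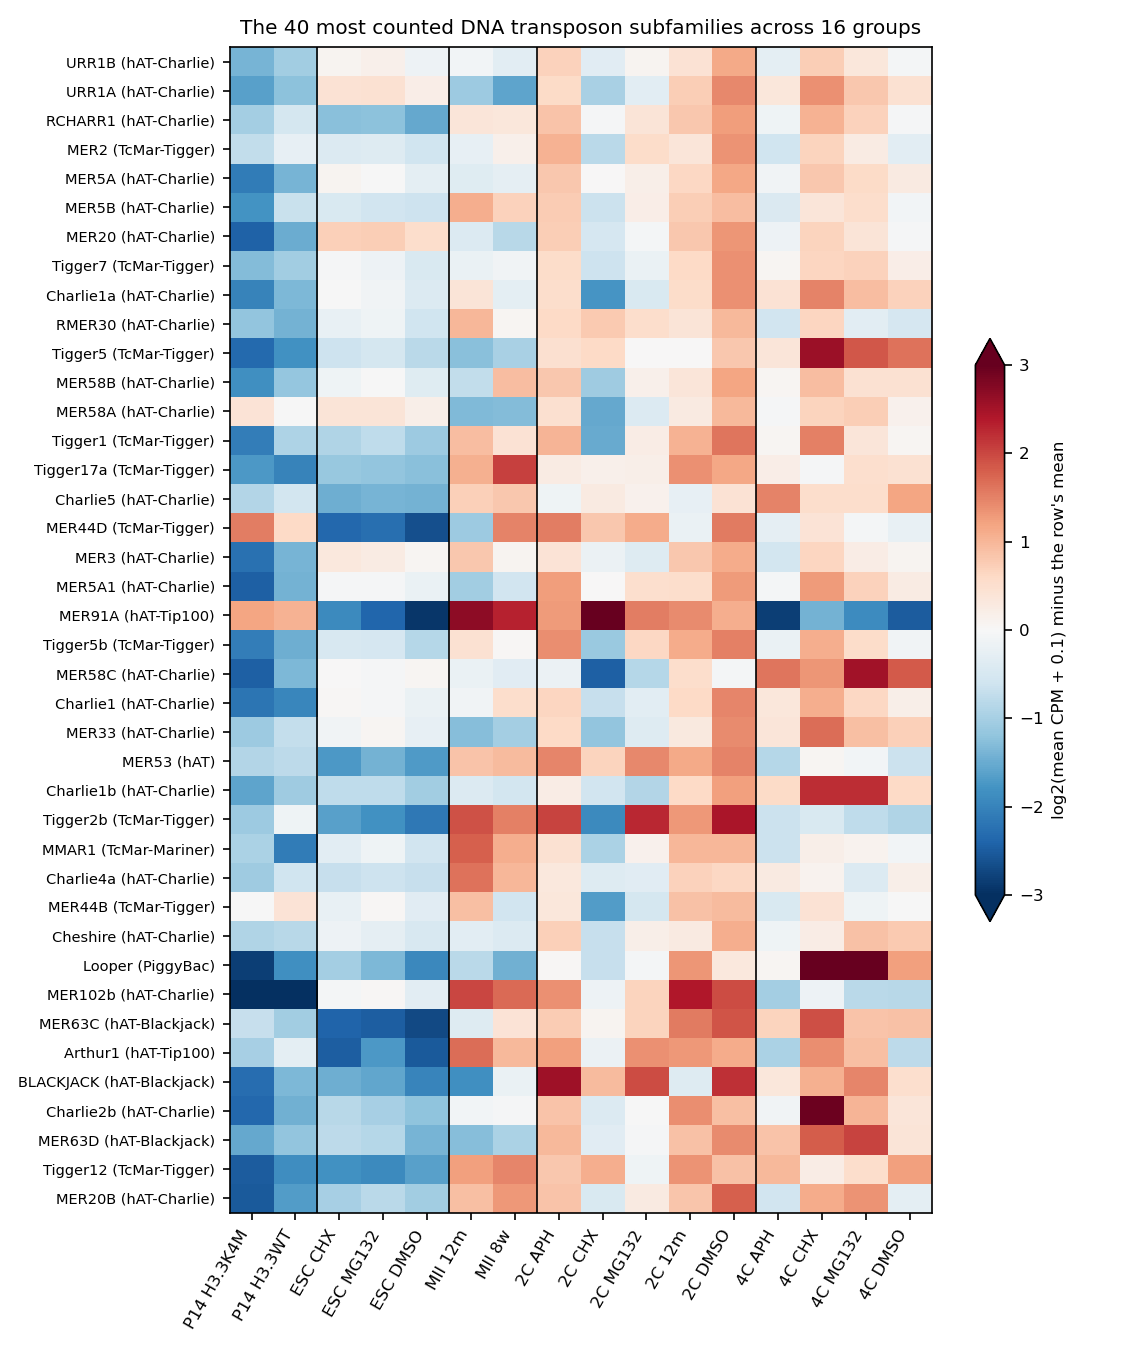
The 40 DNA transposon subfamilies with the highest mean level (rows, with family) in the 16 groups (columns). Colour gives log2 of the group's mean CPM with 0.1 CPM added, minus the row's mean over the groups, with colours saturating at 3 in either direction; MER91A is above its mean in every 2C column and below it in every 4C column, and MER58C is highest at 4 cells.

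The step to the 2-cell stage was examined by setting 2C DMSO embryos against MII 8w oocytes. Here and below, a call means an adjusted p under 0.05 in the quasi-likelihood test of edgeR, adjusted by the Benjamini-Hochberg method over all genes and repeats tested. Member values given with a test are normalised CPM on the scale of that fit, so they compare within a comparison only, and each log2 fold change carries its standard error. Of 175 members tested, 25 were higher and 5 lower (17.1%), while 27% of all repeat subfamilies were called (24.5% higher and 2.58% lower) and 20.6% of all genes and repeats. The median log2 fold change was 1.06 over the members, 0.95 over all repeats and 0.33 over genes. Among the families, 10 hAT-Charlie members were higher and 2 lower of 67 tested, 7 TcMar-Tigger members higher and 2 lower of 41, and 4 of the 8 hAT-Blackjack members higher. The share called was thus lower than among repeats as a whole. With gene-only library sizes the median of genes moved to 0.62 and the calls to 39 higher and 1 lower, the 1 being MER91A. Leaving out 1 library gave 16 calls (without either 2C DMSO replicate), 15 (without MII 8w rep 1) or 13 (without MII 8w rep 2), and 7 members kept their call in all 4.

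URR1A was the index member with the largest rise, at 189 and 182 normalised CPM in 2C DMSO embryos against 39.5 and 40.4 in MII 8w oocytes (log2 fold change 2.21 ± 0.24, edgeR adjusted p = 0.000254). MER20, a short hAT-Charlie element, rose as well, with 71.6 and 65.8 against 27.3 and 26.8 (1.34 ± 0.25, adjusted p = 0.00503). Both kept their call when any 1 of the 4 libraries was left out. URR1B (0.63 ± 0.23, adjusted p = 0.0763) and MER5A (0.63 ± 0.24, adjusted p = 0.0916) missed the threshold, and were called with gene-only library sizes. RCHARR1 had 136 and 124 normalised CPM in 2C DMSO embryos and 125 and 117 in MII 8w oocytes, and these libraries overlapped. Low-count members showed the largest ratios. Kanga1b (TcMar-Tc2) had 129 reads in 2C DMSO embryos and none in MII 8w oocytes, at least 24.5-fold higher with the oocytes set to 3 reads over the group. Tigger11a had 124 reads and none, at least 23.5-fold higher. Both bounds cover counting error only. Each lost its call without either MII 8w replicate, and Tigger11a also without 2C DMSO rep 1. MamRep137 of TcMar-Tigger had 138 reads against 3, a ratio of 26.2 with an exact 95% counting interval of 8.78 to 129, and its call depended on both 2C DMSO libraries and on MII 8w rep 2. The MULE-MuDR row of Ricksha_c (4.36 ± 0.98, adjusted p = 0.0114) lost its call without MII 8w rep 2, and MER45A (4.15 ± 0.92, adjusted p = 0.0111) without MII 8w rep 1.

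MER91A, a short hAT-Tip100 element, went the other way. It had 10.3 and 15.5 normalised CPM in 2C DMSO embryos against 52.2 and 53.4 in MII 8w oocytes (-2.04 ± 0.33, adjusted p = 0.00248), with a call in every leave-one-out fit. The other members that fell were Tigger17a (29.8 and 25.4 against 110 and 65.8 normalised CPM), Charlie5 (18 and 18.2 against 45.2 and 37.8), Charlie4a (10.8 and 12.2 against 26.9 and 24.9) and Tigger12 (5.06 and 7.60 against 11.4 and 22.8). The oocyte and embryo libraries did not overlap in any of these, which was a condition for naming them. None of these 4 calls was stable: each was lost when either 2C DMSO library was left out, those of Tigger17a, Charlie5 and Charlie4a also without MII 8w rep 1, and those of Tigger12 and Charlie4a also without MII 8w rep 2. All 4 were lost with gene-only library sizes as well.

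The same passage in material from 12-month females uses other libraries. Of 175 members tested in 2C 12m embryos against MII 12m oocytes, 11 were higher and 4 lower, with 20.2% of all repeats (19.2% higher and 0.994% lower) and 13.1% of all genes and repeats called. The median log2 fold change was 0.77 over the members, 0.90 over all repeats and 0.19 over genes. With gene-only library sizes the median of genes was 0.38 and the calls 19 higher and 2 lower. URR1A rose again, with 131 and 153 normalised CPM in 2C 12m embryos against 49.8 and 54.7 in MII 12m oocytes (1.44 ± 0.23, adjusted p = 0.0032), and lost its call without MII 12m rep 1. MER91A fell again, with 23 and 17.6 against 60.2 and 66.2 (-1.64 ± 0.33, adjusted p = 0.00962), a call that needed both 2C 12m libraries and MII 12m rep 2. MER63A, a hAT-Blackjack element, had 9.81 and 8.17 against 1.43 and 0.597 (3.14 ± 0.60, adjusted p = 0.00743) and lost its call without MII 12m rep 2. Kanga2_a (3.75 ± 0.86), Zaphod2 (3.67 ± 1.07), MamRep38 (3.06 ± 0.86) and Tigger15a (2.65 ± 0.68) were called higher, and Charlie5 (-1.34 ± 0.29), Charlie4a (-1.30 ± 0.34) and RMER30 (-0.99 ± 0.28) lower, at adjusted p values of 0.0138 to 0.0494. Each of these 7 lost its call without at least 3 of the 4 libraries. No call of the 15 held in every leave-one-out fit: 3 members were called after removal of 2C 12m rep 1, 2 after removal of 2C 12m rep 2, 5 after removal of MII 12m rep 1 and 1 after removal of MII 12m rep 2.

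Of the members called higher in the passage at either age, 7 were called at both, which is 63.6% of the 11 in 12-month material and 28% of the 25 in 8-week material. Of those called lower, 3 were called at both, 75% of 4 and 60% of 5. Sharing over all repeats was not counted, so these shares cannot be read as particular to the members. The difference between the passages was tested directly and called no member with edgeR (15 of 175 at an unadjusted p under 0.05, and 1 called with the DESeq2 Wald test), nor any repeat subfamily (0%; 0.0167% of all genes and repeats). For URR1A the 12-month change minus the change in the younger material was -0.77 ± 0.33 (edgeR adjusted p = 0.645). A p that misses the threshold does not show that the passages were alike.

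Between 4C DMSO and 2C DMSO embryos most called members fell. Of 175 tested, 3 were higher and 36 lower (22.3%), against 32.1% of all repeats (8.35% higher and 23.8% lower) and 48.1% of all genes and repeats. The median was -0.71 over the members, -0.56 over repeats and -0.57 over genes, so that the shift of the members was close to that of the genes in the same fit. With DESeq2 size factors the median of genes was -0.36 and that of the members -0.49, and with gene-only library sizes -0.72 and -0.87. In hAT-Charlie 2 members were higher and 14 lower of 67, in TcMar-Tigger 9 lower of 41, in hAT-Tip100 6 lower of 27, in hAT 3 lower of 7 and in TcMar both tested members were lower. The count was 23 with 4C DMSO rep 2 left out, 24 with 4C DMSO rep 1 or with 2C DMSO rep 2 left out, and 30 with 2C DMSO rep 1 left out, and 13 members kept their call in every leave-one-out fit.

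MER91A had 1.53 and 1.12 normalised CPM in 4C DMSO embryos against 10.3 and 15.5 in 2C DMSO embryos (-3.28 ± 0.36, adjusted p = 4.99e-05), and so stood lower at each of the steps from MII oocyte to 4 cells. MER94 (hAT-Blackjack) had 0.841 and 0.755 against 8.47 and 9.40 (-3.48 ± 0.79, adjusted p = 0.00468). Eulor8 (TcMar) had 0 and 0.493 against 4.41 and 3.36 (-3.97, adjusted p = 0.0175). The 4C DMSO libraries lay below the 2C DMSO libraries in all 3, which was a condition for naming them. MamRep1894 (hAT) had no read in 4C DMSO embryos and 116 in 2C DMSO embryos, at least 32.2-fold lower with the 4C group set to 3 reads. MER44D (TcMar-Tigger) had 13.7 and 11.3 against 35.3 and 29.6 (-1.38 ± 0.31, adjusted p = 0.00468). Of the index members, MER2 fell with a call in every leave-one-out fit (54.5 and 64.2 against 127 and 158; -1.26 ± 0.25, adjusted p = 0.00193). MER20, RCHARR1 and URR1B were called lower, but not after either 4C DMSO library was left out. URR1B was not called with size factors from DESeq2 either. The call of Arthur1A (-3.25 ± 1.05, adjusted p = 0.0269) needed rep 2 of both stages. URR1A was not called (123 and 128 against 189 and 182; -0.56 ± 0.23, adjusted p = 0.0666), and with gene-only library sizes was.

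MER58C, a hAT-Charlie element, showed the opposite course. It had 41.8 and 36.6 normalised CPM in 4C DMSO embryos against 7.02 and 8.50 in 2C DMSO embryos (2.34 ± 0.34, adjusted p = 0.000277), with a call in every leave-one-out fit. Its plain CPM was 27.6 to 78 in all 8 libraries of 4C embryos. Charlie5 also rose, with 37.2 and 43.8 against 18 and 18.2 (adjusted p = 0.00774), but its call needed both 2C DMSO libraries. As 2C DMSO libraries are part of both steps, the values of a member in the 2 comparisons are not independent.

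**Figure D4:**
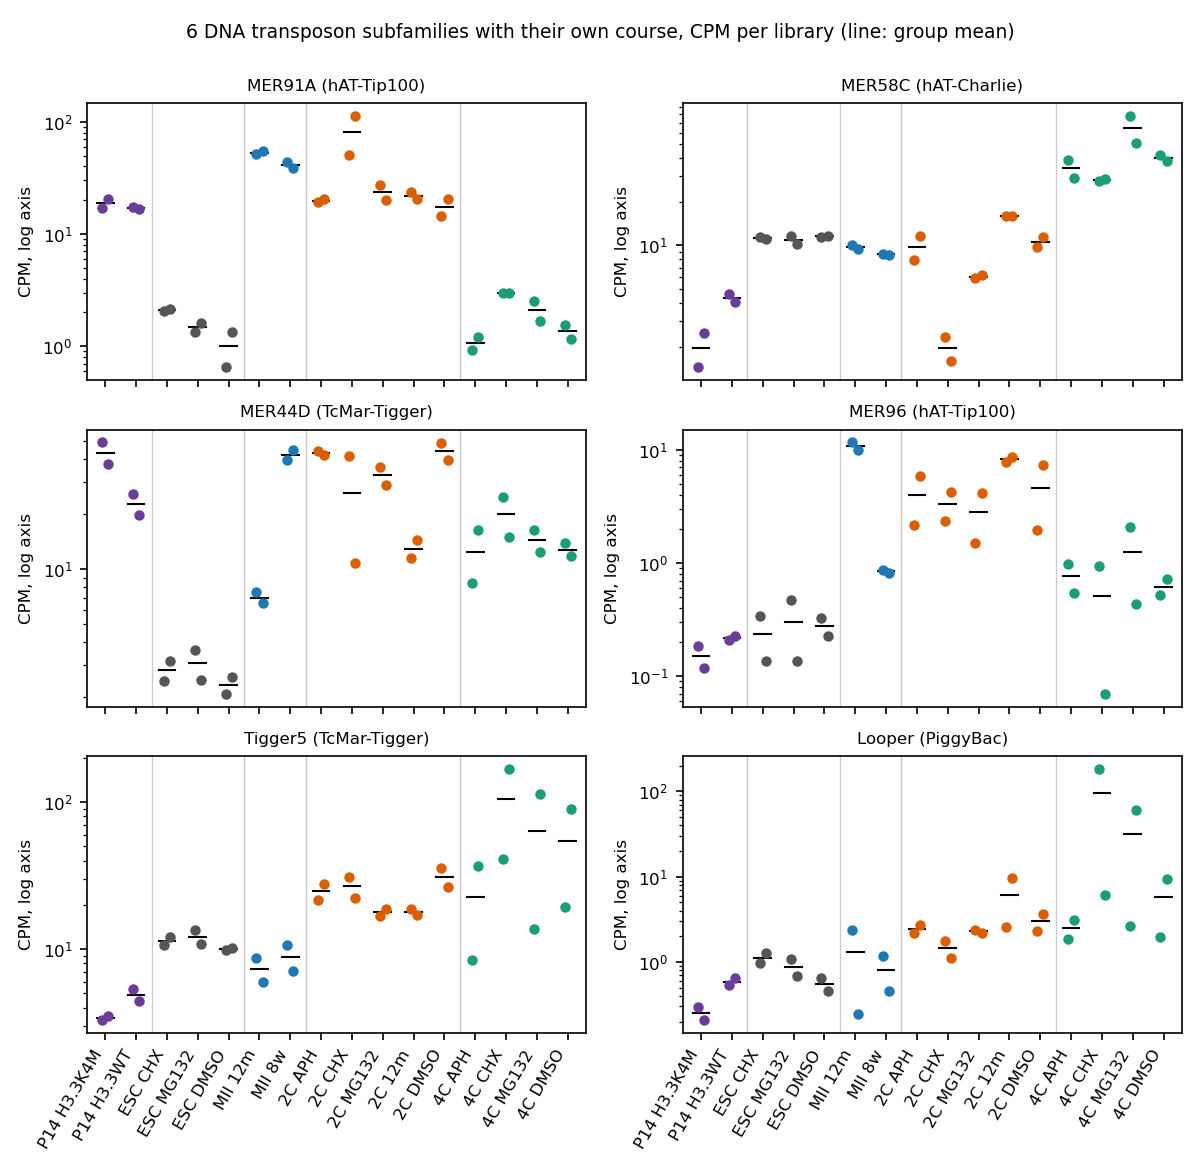
CPM in each library (points, log axis) and group means (lines) of 6 subfamilies whose course differed from that of the class; Tigger5 and Looper were added after their values were seen. MER91A is high in MII oocytes and 2C CHX embryos and lowest in 4C embryos and stem cells, MER58C is highest in 4C embryos, MER44D and MER96 differ between MII 12m and MII 8w oocytes in opposite directions, and Tigger5 and Looper differ between the replicates of most 4C groups.

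In 2C embryos with CHX, which blocks translation, DNA transposons were lower as a class. The log2 ratio of the mean class share to that with DMSO was -1.48 of all counts but -0.53 of repeat counts. Of 176 members tested against 2C DMSO, 2 were higher and 55 lower (32.4%), against 43.2% of all repeats (1.08% higher and 42.1% lower) and 25.2% of all genes and repeats. The median was -1.61 over the members, -1.42 over repeats and -0.26 over genes. In hAT-Charlie 26 of 67 tested members were lower, in TcMar-Tigger 18 of 40 and in hAT-Blackjack 3 of 8, while in hAT-Tip100 2 were higher and 3 lower of 29. The summed level of 2-cell markers was 27.8 and 31.6 CPM with CHX, against 25028 and 15302 CPM with DMSO, and the part of that shift in the members' values was not tested. Leaving out 2C DMSO rep 2 gave 34 calls, the fewest of the 4 leave-one-out fits, and 29 of the 57 kept their call in all 4.

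URR1A had 67.9 and 48.6 normalised CPM with CHX against 239 and 229 with DMSO (-2.01 ± 0.29, edgeR adjusted p = 0.000641). MER2, an internally deleted Tigger relative, had 55.3 and 50.9 against 161 and 199 (-1.76 ± 0.33, adjusted p = 0.00264). Tigger7 (-1.61 ± 0.29), MER20 (-1.42 ± 0.30) and URR1B (-1.06 ± 0.25) fell as well, and these 5 kept their call whichever library was left out. MER5B (-1.19 ± 0.30, adjusted p = 0.0133) was not called without rep 2 of either group. MER5A (-0.75 ± 0.27, adjusted p = 0.0601) and RCHARR1 (-0.90 ± 0.32, adjusted p = 0.0611) were not called, but with the replicate number as a block they were (adjusted p = 0.0467 and 0.0381). In none of these 8 did a CHX library reach a DMSO library. How many of all repeats showed the same was not counted, and the median over repeats was -1.42, so it is no added support for the uncalled members. MER106A had 0.128 and 0.210 against 2.89 and 3.42 (-4.18 ± 0.91, adjusted p = 0.00624), and Charlie19a 0.170 and 0.210 against 3.53 and 2.93 (-4.05 ± 0.88, adjusted p = 0.00626). UCON29, a PiggyBac member, had 2 reads with CHX and 149 with DMSO, a ratio of 58.3 with a 95% counting interval of 15.8 to 486. Charlie26a had 2 reads against 148 (57.9, interval 15.7 to 482). MER113A had 1 against 74 (57.9, interval 10.1 to 2316) and was not called without rep 2 of either group.

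MER91A rose with CHX where most of the class fell, to 60.8 and 140 normalised CPM against 13.1 and 19.5 with DMSO (2.62 ± 0.43, adjusted p = 0.00134), with a call in every leave-one-out fit. The 2 CHX libraries differed from each other by more than the DMSO libraries did. Plain CPM of MER91A was 50.5 and 112.5 in 2C CHX embryos, 51.2 and 54.6 in MII 12m and 43.4 and 39.1 in MII 8w oocytes, and 14.4 to 27.4 in the other 8 libraries of 2C embryos. MER97c, another hAT-Tip100 member, had 11.6 and 5.18 against 2.45 and 2.49 (1.77 ± 0.59, adjusted p = 0.0475), and was not called without 2C CHX rep 1 or without either 2C DMSO library. With size factors from DESeq2 its adjusted p was 0.055, with gene-only library sizes 0.0568 and without the low-count filter 0.0787.

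With MG132, which blocks the proteasome, 0 of 176 members were higher and 34 lower (19.3%) at 2 cells, against 27.3% of all repeats (0% higher and 27.3% lower) and 10.9% of all genes and repeats. In all 69 members had an unadjusted p under 0.05. The log2 ratio of the class share was -1.03 of all counts and -0.39 of repeat counts. The median was -1.41 over the members, -1.22 over repeats and -0.07 over genes. In hAT-Charlie 17 of 67 were lower and in TcMar-Tigger 11 of 40. The summed 2-cell marker level was 54.1 and 146 CPM with MG132, and its part in these values was not tested. URR1A had 61.7 and 65.7 normalised CPM with MG132 against 239 and 229 with DMSO (-1.88 ± 0.29, adjusted p = 0.0022). Tigger7 had 25.7 and 25.1 against 80.0 and 85.5 (-1.71 ± 0.29, adjusted p = 0.00377), and MER46C, a TcMar-Tigger member, 1.33 and 1.64 against 19.6 and 15.3 (-3.54 ± 0.46, adjusted p = 0.00102). These 3, Charlie1a and Charlie1b were the 5 calls that held in every leave-one-out fit. URR1B (-1.19 ± 0.25, adjusted p = 0.0116) was called only with both MG132 libraries and DMSO rep 1 present, MER5A (-1.11 ± 0.27, adjusted p = 0.0226) only with all 4 libraries and MER20 (-1.51 ± 0.30, adjusted p = 0.00874) only with MG132 rep 2. MER2 (-0.91 ± 0.32, adjusted p = 0.0939) and RCHARR1 (-0.99 ± 0.32, adjusted p = 0.0727) were not called, but with the replicate number as a block they were (0.0478 and 0.0488). MER5B was not called (-0.86 ± 0.30, adjusted p = 0.0877), but was with size factors from DESeq2 (0.0493), with its Wald test (0.00665) and with adjustment over repeats only (0.0384). MER5A was not called without the low-count filter (0.0504).

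Among members with fewer reads, Kanga2_a had 0.174 and 0.616 normalised CPM with MG132 against 7.60 and 4.94 with DMSO (-3.91 ± 0.90, adjusted p = 0.0166) and lost its call without MG132 rep 1 or DMSO rep 1. Charlie29a had 0.348 and 0.470 against 4.51 and 5.04 (-3.52 ± 0.83, adjusted p = 0.0188) and lost it without any of the 4. Kanga1b had 2 reads against 129, a ratio of 54.8 with a 95% counting interval of 14.9 to 457, and lost its call without either MG132 replicate. The MuDR row of Ricksha had no read with MG132 and 71 with DMSO, at least 20.1-fold lower, and lost its call without either MG132 replicate or DMSO rep 1. In each of these the MG132 libraries lay below the DMSO libraries, which was a condition for naming them. The number of calls was 6 without MG132 rep 1, whose total of 14505195 counts is among the lowest of the series, 7 without MG132 rep 2, 14 without DMSO rep 1 and 17 without DMSO rep 2.

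APH gave no call at 2 cells with edgeR among 176 members (15 at an unadjusted p under 0.05, 4 called by the DESeq2 Wald test), against 0.197% of all repeats (0% higher and 0.197% lower) and 0.201% of all genes and repeats. The summed 2-cell markers were 1156 and 2844 CPM with APH, and their part in these values was not tested. Of the members, 33 had a positive log2 fold change, and the median was -0.54, beside -0.43 over repeats and -0.01 over genes. URR1A had 114 and 137 normalised CPM with APH against 239 and 229 with DMSO (-0.90 ± 0.28, adjusted p = 0.275), and Tigger7 had 42.5 and 48.1 against 80.0 and 85.5 (-0.87 ± 0.28, adjusted p = 0.308). In both the APH libraries lay below the DMSO libraries without passing the test in edgeR, and the Wald test called both (adjusted p = 0.0228 and 0.0337). URR1B had 169 and 183 against 254 and 242, without overlap. MER2 had 121 and 162 against 161 and 199, with overlap. The 3 drugs share the same DMSO libraries, so that URR1A values of -0.90, -2.01 and -1.88 with APH, CHX and MG132 are given side by side and not as independent results.

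In 2C 12m embryos against 2C DMSO embryos 1 of 176 members was called, BLACKJACK, the namesake of hAT-Blackjack, against 0.394% of all repeats (0.0984% higher and 0.295% lower) and 1.14% of all genes and repeats. It had 3.18 and 4.88 normalised CPM in 12m embryos and 17.5 and 22.4 in DMSO embryos (-2.30 ± 0.41, adjusted p = 0.0219). The groups did not overlap, which was a condition for naming it. The call was lost without either 12m replicate or DMSO rep 2, which left 0 calls. With adjustment over repeats only its adjusted p was 0.0692. Its plain CPM was 0.79 and 1.65 in MII 12m oocytes and 5.15 and 2.91 in MII 8w oocytes. The median was -0.27 over the members, -0.22 over repeats and -0.07 over genes. URR1A had 166 and 194 against 239 and 229 (-0.38 ± 0.28, adjusted p = 0.583), below the DMSO libraries but not called. The summed 2-cell markers were 10484 and 13059 CPM in 12m embryos. The DMSO libraries are also those of the drug comparisons.

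**Figure D5:**
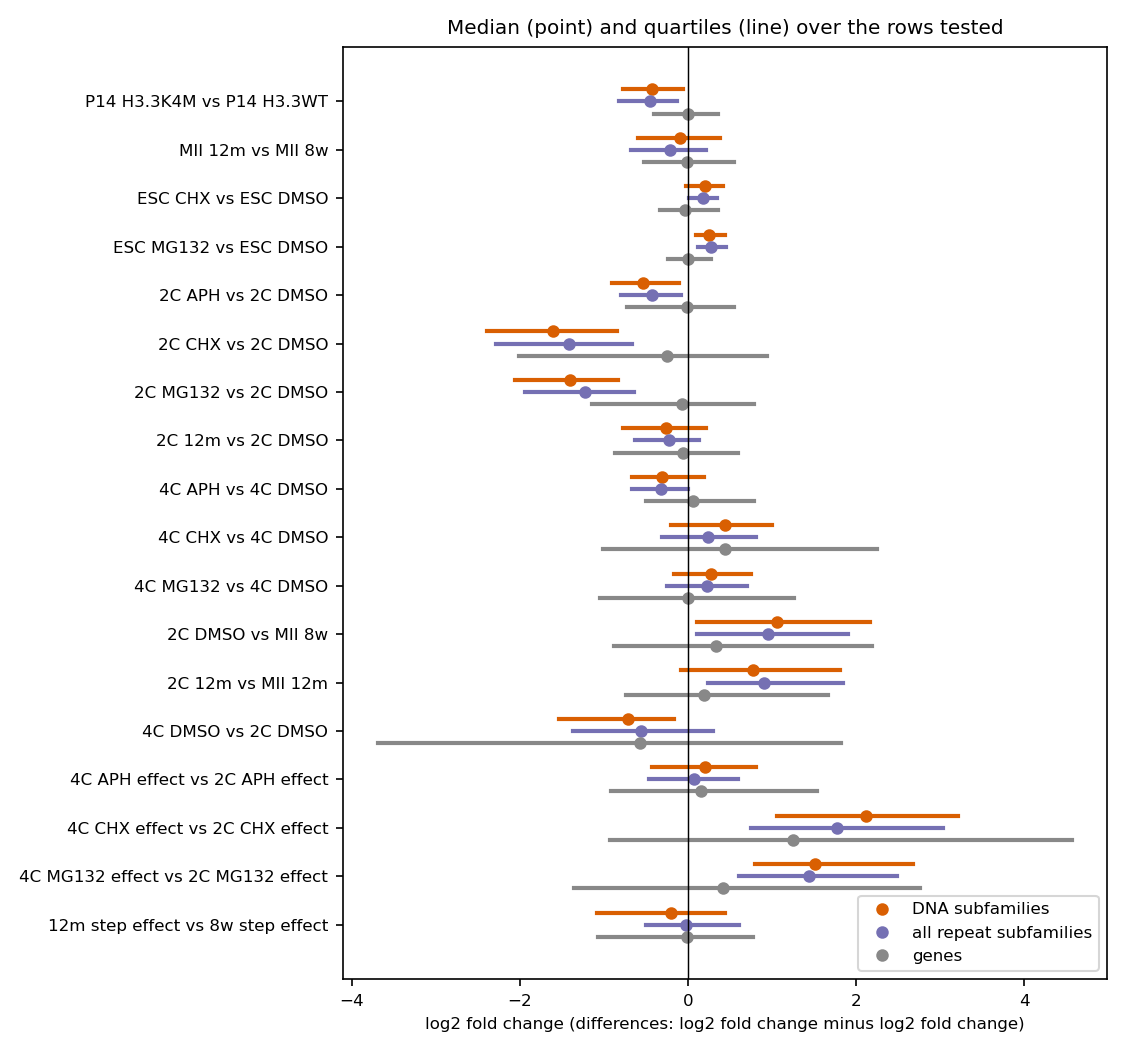
Median (point) and quartiles (line) of the log2 fold change over the DNA transposon subfamilies, all repeat subfamilies and genes tested in each comparison and, in the last 4 rows, of the differences between changes. With CHX at 2 cells the members' median is -1.61, beside -1.42 over repeats and -0.26 over genes, while with CHX at 4 cells it is 0.44, as over genes, beside 0.24 over repeats. It is below 0 in every 2C group against 2C DMSO and above 0 for CHX and MG132 at 4 cells.

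At 4 cells CHX was compared with DMSO over 174 members, of which 3 were higher and 2 lower, against 7.68% of all repeats (3.09% higher and 4.59% lower) and 18.3% of all genes and repeats. The median was 0.44 over the members and 0.44 over genes, with 0.24 over repeats, and without CHX rep 1 that of the members was 0.15. The log2 ratio of the class share was 0.78 of all counts but 0.29 of repeat counts, where the libraries overlapped. Charlie1b had 39.3 normalised CPM in both CHX libraries against 16.2 and 18.9 with DMSO (adjusted p = 0.0489). Charlie2b had 43.7 and 15.3 against 7.12 and 6.81 (2.08 ± 0.60, adjusted p = 0.0427), and Arthur1, a hAT-Tip100 member, 9.02 and 17.0 against 3.79 and 3.77 (1.78 ± 0.51, adjusted p = 0.0405). Lower were Charlie5, with 23.9 and 20.1 against 43.4 and 51.3 (-1.11 ± 0.29, adjusted p = 0.0288), and Charlie21a, with 2.78 and 2.47 against 7.64 and 10.8 (-1.81 ± 0.54, adjusted p = 0.0462). The groups did not overlap in any of these 5, which was a condition for naming them. Each lost its call without at least 3 of the 4 libraries: the count was 1 without either CHX replicate and 0 without either DMSO replicate. With adjustment over repeats alone 0 of the 5 were called. The summed 2-cell markers were 9039 and 16542 CPM with CHX, against 6090 and 5866 CPM with DMSO. The 10 cumulus and granulosa markers summed to 22.3 and 27.8 CPM with CHX and 62.3 and 90.3 CPM with MG132, against 349.9 and 345 CPM with DMSO, where Gja1 made up almost all of the sum, and 4 to 7 of the 10 were at 0 in these libraries. The part of either list in these values was not tested. URR1A had 213 and 186 against 143 and 150 (0.45 ± 0.22, adjusted p = 0.176), close to the shift of the genes.

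MG132 at 4 cells gave 1 call of 174, again Charlie1b, with 40.7 and 56.7 normalised CPM against 16.2 and 18.9 with DMSO (1.47 ± 0.35, adjusted p = 0.0405), while 2.69% of all repeats (1.4% higher and 1.3% lower) and 7.08% of all genes and repeats were called. It lost the call without any of the 4 libraries, which left 0 calls, and with adjustment over repeats only (adjusted p = 0.109). The median was 0.27 over the members, 0.23 over repeats and 0.00 over genes, and that of the members was 0.00 without MG132 rep 1. The log2 ratio of the class share was 0.43 of all counts and 0.09 of repeat counts. APH at 4 cells gave no call with edgeR (3 of 174 at an unadjusted p under 0.05, none by the DESeq2 Wald test and 1 without the low-count filter), and 0% of all repeats and of all genes were called. Its median was -0.31 over the members, -0.32 over repeats and 0.05 over genes. The 3 drugs share the 4C DMSO libraries.

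Tigger5 and Looper were singled out after their values were seen, for the distance between replicates at 4 cells. Looper, a PiggyBac element, had 183.6 and 6.02 CPM with CHX and 2.67 and 60.7 CPM with MG132, and at most 9.65 CPM in any other library. The test of CHX gave 3.53 ± 1.63 (adjusted p = 0.158). Tigger5 had 8.46 and 36.7 CPM with APH, 41.2 and 168.7 with CHX, 13.7 and 113.8 with MG132 and 19.4 and 90.1 with DMSO. Rep 2 was the higher library in each of these 4 groups, and the libraries of each drug overlapped those with DMSO.

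Whether CHX and MG132 acted differently at 4 and at 2 cells was tested as the 4C change minus the 2C change in 1 fit of the 18 embryo libraries. For CHX, 39 of 183 members were higher and 1 lower, against 30.9% of all repeats (29.8% higher and 1.04% lower) and 21.4% of all genes and repeats. The median difference was 2.11 over the members, 1.77 over repeats and 1.25 over genes. For MG132, 22 were higher and 0 lower, against 21% of repeats (20.7% higher and 0.285% lower) and 11.7% of all genes and repeats, with 53 members at an unadjusted p under 0.05 and medians of 1.51, 1.43 and 0.42. For APH no member was called with edgeR (4 of 183 at an unadjusted p under 0.05, and none by the DESeq2 Wald test), nor any repeat (0%), and the median over the members was 0.20, or 0.01 to 0.45 with 1 library left out. Among hAT-Charlie members 19 of 68 were called higher for CHX and 11 of 68 for MG132, and among TcMar-Tigger members 10 and 4 of 41.

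URR1A had a difference of 2.51 ± 0.38 for CHX (adjusted p = 0.000298) and 2.04 ± 0.38 for MG132 (adjusted p = 0.00269), both held in every leave-one-out fit. In read totals of both replicates, URR1A had 13881 with CHX and 7988 with DMSO at 4 cells, and 2751 with CHX and 14173 with DMSO at 2 cells. URR1A thus lay below DMSO at 2 cells and above it at 4 cells. The 4C change alone was not called and lay close to the median of genes with CHX at 4 cells, 0.44. Over genes the median CHX difference between the stages was itself 1.25. The reads are those used in the fit and give no separate support. MER125, of no named family, had 159 reads with CHX and 32 with DMSO at 4 cells, and 0 with CHX and 44 with DMSO at 2 cells, and kept its call for CHX in every leave-one-out fit (adjusted p = 0.00304). MER5C1 had 104 and 1 at 4 cells and 7 and 45 at 2 cells, and MamRep1894 51 and 0 at 4 cells and 75 and 116 at 2 cells. These last 2 calls (adjusted p = 0.0476 and 0.0274) were lost in at least 6 of the 8 leave-one-out fits. MER91A was the 1 member with a lower difference for CHX (-1.88 ± 0.64, adjusted p = 0.046), a call that held only when 2C CHX rep 1 was the library left out. It was not called without the low-count filter (adjusted p = 0.0908) or with gene-only library sizes (0.0522). With 1 library left out, the count for CHX was 29 without 2C CHX rep 1 or 4C CHX rep 2, 22 without 2C CHX rep 2, 24 and 23 without 2C DMSO rep 1 and rep 2, 15 without 4C CHX rep 1, and 18 and 16 without 4C DMSO rep 1 and rep 2. For MG132 it was 5 and 6 without 2C MG132 rep 1 and rep 2, 8 and 10 without the 2C DMSO libraries in that order, 10 and 13 without the 4C MG132 libraries, and 9 and 5 without the 4C DMSO libraries. In all, 11 members for CHX and 4 for MG132 kept their call throughout.

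Maternal age in MII oocytes was compared between 12m and 8w oocytes. Of 125 members tested, 1 was higher and 1 lower (1.6%), against 1.08% of all repeats (0.241% higher and 0.843% lower) and 0.817% of all genes and repeats. MER96, a hAT-Tip100 element, had 11.1 and 9.73 normalised CPM in 12m oocytes against 0.836 and 0.920 in 8w oocytes (3.56 ± 0.42, adjusted p = 0.0274). MER44D had 7.15 and 6.31 against 38.0 and 50.6 (-2.72 ± 0.32, adjusted p = 0.0274). The groups were far apart in both. Both calls were lost without either 12m replicate, which left 0 calls, while without 8w rep 1 there were 5 calls and without 8w rep 2 there were 8. In embryos, MER96 had a plain CPM of 7.8 and 8.67 in 2C 12m and 1.96 and 7.32 in 2C DMSO libraries, and MER44D 11.5 and 14.4 in 2C 12m and 49.3 and 39.6 in 2C DMSO libraries. MER44D thus was low in both 12m groups relative to the younger ones, though it was not called in 2C 12m embryos. The median was -0.09 over the members, -0.22 over repeats and -0.01 over genes, and that of the members was -0.03 without 8w rep 2. Of 10 cumulus and granulosa markers, the summed level was 121 and 99.3 CPM in 12m and 99.1 and 75.1 CPM in 8w oocytes, and its part in these results was not tested.

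In P14 growing oocytes, H3.3K4M was compared with H3.3WT over 119 members, of which 3 were higher and 17 lower (16.8%). Among all repeats 29.7% were called, 2.65% higher and 27.1% lower, and among all genes and repeats 22.8%, so that the members' share was below that of repeats as a whole. The median was -0.43 over the members, -0.45 over repeats and 0.00 over genes. In hAT-Charlie 9 of 49 members were lower, in hAT-Tip100 2 of 17, in TcMar-Tigger 2 of 29 and in TcMar both tested members. MER5B had 12.6 and 13.6 normalised CPM with H3.3K4M against 28.2 and 26.3 with H3.3WT (-1.05 ± 0.17, adjusted p = 0.000885). Kanga1d (TcMar-Tc2) had 1.31 and 1.12 against 2.90 and 3.43 (-1.39 ± 0.27, adjusted p = 0.00302), and Tigger1 3.51 and 4.79 against 8.48 and 9.64 (-1.11 ± 0.23, adjusted p = 0.00359). MER58C had 1.59 and 2.35 against 4.31 and 4.08 (-1.07 ± 0.26, adjusted p = 0.0105). None of these overlapped, which was a condition for naming a member by its fold change. All 4 kept their call in every leave-one-out fit. MER20 fell (7.02 and 7.17 against 13.9 and 12.0; -0.87 ± 0.20, adjusted p = 0.00727) but lost its call without H3.3WT rep 1. MER5A (-0.64 ± 0.18, adjusted p = 0.0218) needed both H3.3WT libraries and H3.3K4M rep 2 for its call, and Charlie7 (-1.05 ± 0.33, adjusted p = 0.0407) both H3.3WT libraries and H3.3K4M rep 1. The DESeq2 Wald test did not call Charlie7 (adjusted p = 0.182). Low-count ORSL, a hAT-Tip100 member called in every leave-one-out fit, had 2 reads with H3.3K4M and 32 with H3.3WT, a ratio of 14.4 with a 95% counting interval of 3.68 to 124. URR1A (-0.33 ± 0.16, adjusted p = 0.172), URR1B (-0.28 ± 0.16, adjusted p = 0.24), MER2, RCHARR1 and Tigger7 were not called.

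The 3 members higher with H3.3K4M were MMAR1, MER44D and MER135. MMAR1, a mariner element, had 4.82 and 5.58 normalised CPM with H3.3K4M against 1.82 and 2.61 with H3.3WT (1.24 ± 0.25, adjusted p = 0.0039). MER44D had 54.8 and 35.6 against 24.1 and 20.1 (1.03 ± 0.21, adjusted p = 0.00397). Both kept their call in every leave-one-out fit. Neither overlapped, which was a condition for naming them. MER135, of no named family, had 2.86 and 2.58 against 1.41 and 1.54 (0.88 ± 0.26, adjusted p = 0.0305), and its call needed both H3.3WT libraries and H3.3K4M rep 1. The DESeq2 Wald test did not call it (adjusted p = 0.1). The count over all members was 8 without H3.3WT rep 1 and 13 without H3.3WT rep 2.

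In stem cells the drugs left DNA transposons nearly without calls. With CHX, 3 of 139 members were higher and 0 lower (2.16%), against 6.18% of all repeats (3.85% higher and 2.33% lower) and 25.7% of all genes and repeats. In all 13 members had an unadjusted p under 0.05. MER105, of no named family, had 6.30 and 7.72 normalised CPM with CHX against 2.33 and 2.53 with DMSO (1.52 ± 0.21, adjusted p = 0.00276) and kept its call in every leave-one-out fit. The hAT-Tip100 row of MER96B had 1.91 and 2.49 against 0.924 and 0.876 (1.29 ± 0.39, adjusted p = 0.0442, or 0.197 over repeats only), and MER91C, named after its values were seen, had 0.620 and 0.480 against 0.146 and 0.0922 (2.16 ± 0.61, adjusted p = 0.0361). Neither kept its call in every fit, and 1 call was left without any 1 library. With MG132 no member was called with edgeR (11 of 139 at an unadjusted p under 0.05, none by the DESeq2 Wald test), against 1.28% of repeats (1.05% higher and 0.233% lower) and 3.06% of all genes and repeats, but 15 were called without MG132 rep 1 and 17 without MG132 rep 2. The medians were 0.21 (CHX) and 0.25 (MG132) over the members, 0.17 and 0.27 over repeats and -0.04 and -0.01 over genes, with the DMSO libraries shared. With 1 library left out the members' median lay between 0.06 (without DMSO rep 1) and 0.35 (without DMSO rep 2) for CHX, and between 0.09 and 0.39 without the same libraries for MG132. URR1A had 113 and 133 with CHX and 133 and 122 with MG132, against 103 and 119 with DMSO, and was not called in either. The summed fibroblast markers were 576 and 569 CPM with CHX and 604 and 573 CPM with MG132, against 1063 and 1291 CPM with DMSO, almost all of it Col1a1 and Col1a2, and their part in these values was not tested.

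The genome also holds genes that descend from DNA transposons, and 27 of them were listed by the superfamily they derive from: the pogo-like Tigd, Jrk, Cenpb, Pogz and Pogk group, the PiggyBac-derived Pgbd group, the Harbinger-derived Harbi1 and Naif1, the hAT-derived Zbed group and Gtf2ird2, the P-element-like Thap group, and Rag1 and Rag2. Between 2C DMSO embryos and MII 8w oocytes 5 of 22 tested were higher and 1 lower, beside 20.3% of genes. Thap11, a zinc-finger transcription factor known from mouse embryonic stem cells, had 32.3 and 18.6 normalised CPM in 2C DMSO embryos against 4.32 and 4.22 in MII 8w oocytes (2.57 ± 0.43, adjusted p = 0.00257). Pogk had 11.2 and 11.4 against 38.3 and 57.3 (-2.08 ± 0.42, adjusted p = 0.00732). In the 12-month passage 4 were higher and 1 lower of 22, beside 12.7% of genes, Thap11 (log2 fold change 2.05) and Thap7 (2.07) among the higher and Pogk (-2.06) the lower. Between 4C DMSO and 2C DMSO embryos 6 were higher and 5 lower of 22, beside 48.8% of genes. Zbed3, which encodes an axin-binding protein of the Wnt pathway, had 8.62 and 5.91 normalised CPM in 4C DMSO embryos against 5256 and 4053 in 2C DMSO embryos (-9.32 ± 0.38, adjusted p = 9.76e-07).

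Under the drugs at 2 cells CHX changed 4 of 22 listed genes (1 higher and 3 lower), beside 24.3% of genes. Tigd2, a pogo-derived gene, had 32 and 41.2 normalised CPM with CHX against 12.9 and 12.3 with DMSO (1.54 ± 0.44, adjusted p = 0.0246), and Thap11 4.64 and 10.6 against 41.0 and 23.5 (-2.08 ± 0.50, adjusted p = 0.0105). At 2 cells no listed gene of 22 was called with edgeR for MG132 (2 at an unadjusted p under 0.05, 1 by the DESeq2 Wald test), APH (5 and 0) or 12m embryos (2 and 0), beside 10.2%, 0.201% and 1.17% of genes in that order. At 4 cells CHX gave 3 higher and 2 lower of 23, beside 18.8% of genes, and MG132 2 higher and 1 lower, beside 7.28%. Zbed3 had 60.2 and 64.8 with CHX against 10.1 and 6.93 with DMSO (2.88 ± 0.61, adjusted p = 0.0135). Thap4 fell with both drugs, with log2 fold changes of -2.08 for CHX and -2.43 for MG132, which share their DMSO libraries. In ESC, CHX gave 3 higher and 4 lower of 24, beside 26.6% of genes, and MG132 1 lower, beside 3.14%. Cenpb, which encodes the centromere protein B that binds satellite repeats, had 71.5 and 66.9 with CHX and 74.2 and 75.9 with MG132, against 114 and 108 with DMSO (-0.68 ± 0.10, adjusted p = 0.00337 for CHX and -0.56, adjusted p = 0.0348 for MG132). In P14 oocytes Thap4 (0.66 ± 0.20, adjusted p = 0.0315) and Thap11 (0.51, adjusted p = 0.0497) were higher with H3.3K4M, 2 of 18 tested, beside 22.5% of genes. MII age gave no call with edgeR over 16 listed genes (2 at an unadjusted p under 0.05, 0 by the DESeq2 Wald test), nor did APH at 4 cells over 23 (3 and 0). Of all genes, 0.802% were called for MII age and 0% for APH at 4 cells. In P14 oocytes the 2 called genes were higher with H3.3K4M, while 17 of the 20 called transposon subfamilies were lower.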

How the data were processed

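The deposited files hold whole-number read counts per gene and per repeat subfamily, 1 file per sample, made by the authors. Per the submitters' processing notes, reads were trimmed with cutadapt 1.16 and aligned with STAR to mm10. Not given in the sources used here are the counting tool, the repeat annotation, strandedness and the rule for multiply mapped reads, so related subfamilies may share reads. Members are the repeat names with the class field DNA. The members and gene lists were chosen with earlier results of these data known.

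Genes and repeats were tested in 1 table with edgeR 4.0.16 (R 4.3.3, limma 3.58.1), with filterByExpr (minimum count 10, total 15), TMM scaling over all features, quasi-likelihood tests and Benjamini-Hochberg adjustment over all features tested. Separate fits held the P14, the MII, the ESC, the 2C and the 4C libraries, all 2C and 4C libraries (drug differences), and the MII, 2C 12m, 2C DMSO and 4C DMSO libraries (steps). Of the 204 members, 183 passed the low-count filter in at least 1 comparison, 99 in all, and 4 had no read. Passing depends on the level in the higher group. Named members are the 8 with the highest mean CPM and, per direction, up to 5 called members (3 for differences). The latter had the largest fold change among those with at least 1 CPM and no overlap. For differences overlap was not defined, so only the limit of 1 CPM applied. Alternatives were DESeq2 1.42.0 size factors and its Wald test, no filter, library sizes from genes only, adjustment over repeats only, the replicate number as a block and leaving out each library. Same-numbered 2C drug and DMSO libraries deviated together, with correlations of 0.238 to 0.495 over all 6 pairs of groups. They were treated as paired only in the alternative with the replicate block, while the main fits used group means without pairing. The pairing rests on the data and not on a label. Intervals and bounds cover counting error only. The code was tested on simulated data.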

Additional observations from a re-analysis of the deposited data

Results flagged for a closer look

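The results below differ between the 4-cell and 2-cell stages by a test of the difference itself, the 4C drug change minus the 2C drug change on the log2 scale, in edgeR's fit of all 2C and 4C libraries. For CHX, 40 of 183 DNA transposon subfamilies were called, beside 30.9% of all repeats and 21.4% of all genes and repeats, and for MG132, 22, beside 21% and 11.7%. Both shares of members lie below that of all repeats and near that of all genes and repeats. For CHX, URR1A differed by 2.51, MER2 by 2.34, MER20 by 1.72, Tigger7 by 1.66, RCHARR1 by 1.56 and URR1B by 1.45. Of the members with the largest differences for CHX, MER125 had a fitted value of 9.23, MER5C1 of 8.37 and MamRep1894 of 7.76, and each had a group with 0 or 1 read, so that these fitted values depend on the prior count and are no measure of size. MER91A had the opposite sign, at -1.88. For MG132, URR1A differed by 2.04, Tigger7 by 2.00, MER20 by 1.77, RCHARR1 by 1.53 and URR1B by 1.38. Kanga1b (6.10, with 2 reads in 2C MG132 embryos), MER125 (4.72) and Tigger16b (4.57) had the largest fitted differences for MG132. Of these 18 single members, MER125, MER2 and URR1A for CHX and URR1A for MG132 kept their call in every leave-one-out fit.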

How the results depend on the processing

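Of 2251 values of named members under an alternative, 1937 kept their direction and side of the threshold, and no called value changed sign. As a share of repeat counts instead of all counts, the log2 ratio of the class turned negative for ESC MG132 (-0.026), for 2C DMSO against MII 8w (-0.60) and for 2C 12m against MII 12m (-1.50). It was 0.32 for MII age (0.05 of all counts) and -0.29 for 2C APH (-0.48). The cause of the changes below was not tested.

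Calls with the DESeq2 Wald test were 11 for H3.3K4M, 9 for MII age, 4 for 2C APH, 55 for 2C MG132, 4 for 2C 12m, 10 for 4C CHX, 6 for 4C MG132, 50 for 2C DMSO against MII 8w, 33 for the 12-month step, 66 and 49 for the CHX and MG132 differences and 1 for the age difference. Without the low-count filter they were 8 for MII age, 5 for ESC CHX, 3 for 2C 12m, 1 for 4C APH, 2 for 4C MG132 and 23 for the CHX difference. With adjustment over repeats only they were 1 for ESC CHX, 0 for 2C 12m, 4C CHX and 4C MG132, and 24 for the 12-month step.

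With the replicate block, H3.3K4M had 13 calls, and MER5A, Charlie7 and MER135 were not among them (adjusted p = 0.0881, 0.0644 and 0.0669). The block gave 4C CHX 3 and the 12-month step 9. The paired 2C groups had 63 (CHX) and 39 (MG132), and the block changed no other count by over 1.5 times. In P14 (r = -0.564) and MII oocytes (r = -0.312) the numbers ran against each other, and crossed pairing, chosen after seeing the data, gave 34 and 2 calls.

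Leaving out 1 library gave 8 to 16 calls for H3.3K4M, 0 to 8 for MII age, 1 for ESC CHX, 0 to 17 for ESC MG132, 34 to 48 for 2C CHX, 6 to 17 for 2C MG132, 0 to 1 for 2C 12m and 4C CHX, 0 for 4C MG132, 13 to 16 for 2C DMSO against MII 8w, 1 to 5 for the 12-month step, 23 to 30 for 4C against 2C DMSO, 15 to 29 for the CHX and 5 to 13 for the MG132 difference. A group then had 1 library, assumed to vary like the others.

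Groups of 2 libraries and low counts limit these results: members with few reads were called only where 1 group was high, and totals were lowest in 2C APH rep 1 and 2C MG132 rep 1.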
